A study of Arabidopsis thaliana with 9 samples.

Results

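The type-A response regulator genes ARR3, ARR4, ARR5, ARR6, ARR7, ARR8, ARR9, ARR15, ARR16 and ARR17 were followed in Arabidopsis thaliana roots after induction of the transcription factor PERIANTHIA (PAN). These 10 genes were picked by name and locus, with earlier results of these data known, from a table of 33201 rows. All groups were the same XVE:PAN transgenic line in ecotype Col-0, in which an estradiol-responsive activator drives PAN, a bZIP transcription factor. Induction times were 0, 6 and 24 h on MS medium that held 1% sucrose and β-estradiol at 10 uM, and growth lasted 5 days in all. Each time had 3 biological replicates, 9 samples in all. Per the labels the RNA came from roots cut at about 0.5 cm behind the tip, although a second field says whole root. The 9 samples analysed here include neither mock-treated plants nor a transgene-free line, so that effects of PAN, of estradiol and of the transfer cannot be told apart. Time of day at harvest is not among the sample details used here, so an effect of it cannot be told apart either.

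Cytokinin is perceived by histidine kinase receptors (AHK2, AHK3 and AHK4), and the signal passes as a phosphoryl group through histidine phosphotransfer proteins (AHP) to response regulators in the nucleus. Type-B response regulators are DNA-binding transcription factors that activate cytokinin target genes. Type-A response regulators lack such a DNA-binding output domain, are themselves among the direct targets of the type-B factors, and act as negative feedback on the pathway. In roots, cytokinin restrains the size of the meristem, and type-A genes are widely used as readouts of cytokinin signalling.

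The deposited table gave 1 FPKM value (sequenced fragments relative to transcript length and to library size) per gene and time, which the authors made from the 3 replicates. Spread between replicates and read depth are therefore unknown, and the authors' q-values are the measure of replicate error. A gene was called changed where that q-value was below 0.05 and its mean over the 3 times was at least 1 FPKM. That mean was reached by 17841 rows and all 10 type-A genes. These 17841 rows are the genes tested below, and rows that the authors' adjustment appears to have left out count as not called. In the authors' deposited table the lowest q is 0.000358, given to 7475 tests, so genes at that value have no order. PAN itself (AT1G68640) had 1.03, 688 and 385 FPKM at 0, 6 and 24 h, with transgene and endogenous transcript not separated.

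Most of the family was lower after induction, and the genes did not all move at the same time. The summed level of the 10 genes was 334 FPKM at 0 h, 259 FPKM at 6 h and 177 FPKM at 24 h. Relative to 0 h the sum fell by 22.6% at 6 h and fell by 47.1% at 24 h. These sums were not scaled by the total over all rows, which was 933264, 860568 and 989899 FPKM at 0, 6 and 24 h. The 6 most abundant genes made up 98.1% of the type-A sum at 0 h and 96.6% at 24 h. These 6 genes were ARR8, ARR4, ARR3, ARR9, ARR6 and ARR5, at 81.6, 74.7, 49.2, 48.7, 40.2 and 33.3 FPKM at 0 h. The other 4, ARR15, ARR17, ARR16 and ARR7, lay at 2.83, 1.63, 1.19 and 0.730 FPKM at 0 h. No replicate spread is available to say which neighbours in this order differ. On this per-length scale the 6 abundant genes stood above the other 4 at each time.

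**Figure D1:**
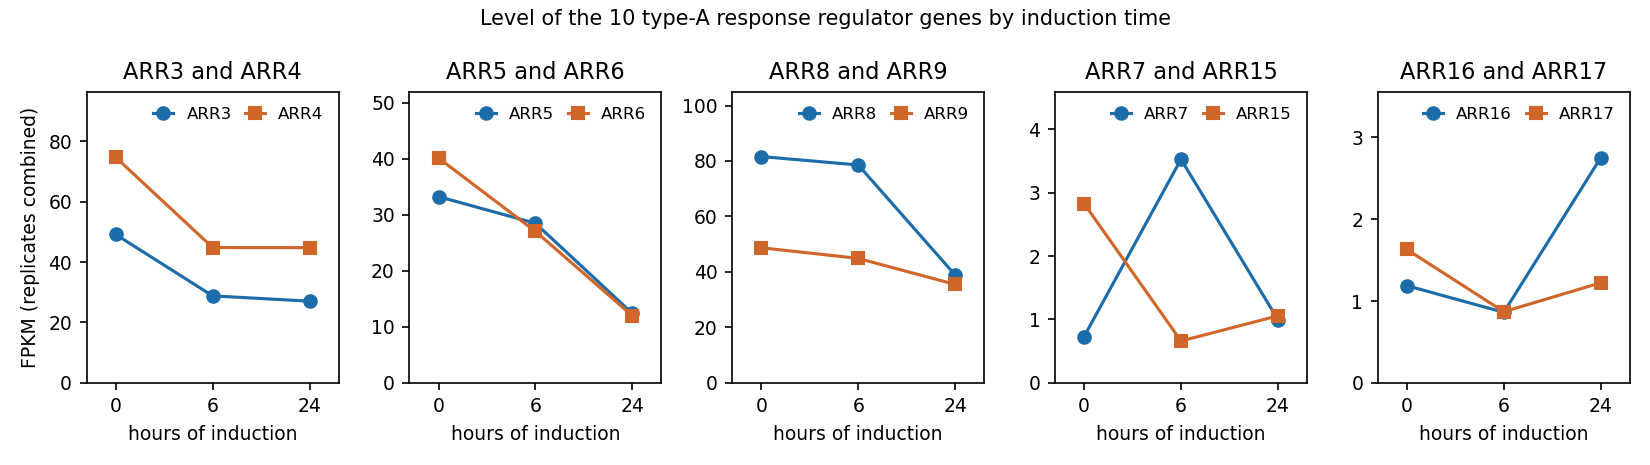
FPKM (vertical axes, each starting at 0 with its own scale) at 0, 6 and 24 h of induction for the 10 type-A genes, drawn in the 5 pairs of closest coding sequence. Each point is 1 value that combines 3 replicates, and no error bar can be drawn. ARR3 and ARR4 were lower from 6 h on, ARR5, ARR6 and ARR8 were lowest at 24 h, and ARR7 was highest at 6 h, when ARR15 was lowest.

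At 6 h versus 0 h, 5 of the 10 genes were called, 4 lower (ARR3, ARR4, ARR6 and ARR15) and 1 higher (ARR7). Of all 17841 genes tested, 11.3% were called in this comparison, 7.35% lower and 3.98% higher. The median change of the 10 genes in log2(FPKM + 1) was -0.36, against 0.02 for all genes tested. When p-values were recovered from the authors' deposited table and adjusted within this comparison alone (Benjamini-Hochberg), 3 of the 5 calls were left, ARR3, ARR4 and ARR7. ARR6 and ARR15 then had adjusted p-values of 0.0618 and 0.0872, and 7.61% of all genes were called in this way. A limit of 0.01 on the q-value also left 3 type-A genes (6.86% of all genes), a minimum mean of 5 FPKM left 3 (12.0%), and a minimum change of 1 left ARR7 and ARR15 (2.58%).

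At 24 h versus 0 h, 7 of the 10 genes were called, and these were all lower: ARR3, ARR4, ARR5, ARR6, ARR8, ARR9 and ARR15. Of all genes tested, 47.7% were called here, 23.8% lower and 23.8% higher, so a call at 24 h was common in either direction. The median change of the 10 genes was -0.78, against 0.05 for all genes tested. ARR9 and ARR15 were close to the limit, with q of 0.0468 and 0.0474 in the authors' deposited table, while ARR16, the next gene, had 0.123. With a change of at least 1 on the log2(FPKM + 1) scale also required, 3 genes were left, ARR5, ARR6 and ARR8, and 17.8% of all genes.

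At 24 h versus 6 h, 5 of the 10 genes were called, 4 lower (ARR5, ARR6, ARR7 and ARR8) and 1 higher (ARR16). Of all genes tested, 39.4% were called in this comparison, 19.8% lower and 19.6% higher. The share of type-A genes called in either direction thus stood near the background. The 4 of 10 called lower stood against 19.8% of all genes, a difference that was not tested. ARR15 and ARR17 appear to lie outside the authors' adjustment in this comparison. With a minimum mean of 5 FPKM, 3 of 6 type-A genes and 43.5% of all genes were called. The median change of the 10 genes was -0.21, against 0.03 for all genes tested, and -0.40 once a trend with transcript length, described below, was removed. The 3 comparisons share their libraries and are not independent of each other.

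**Figure D2:**
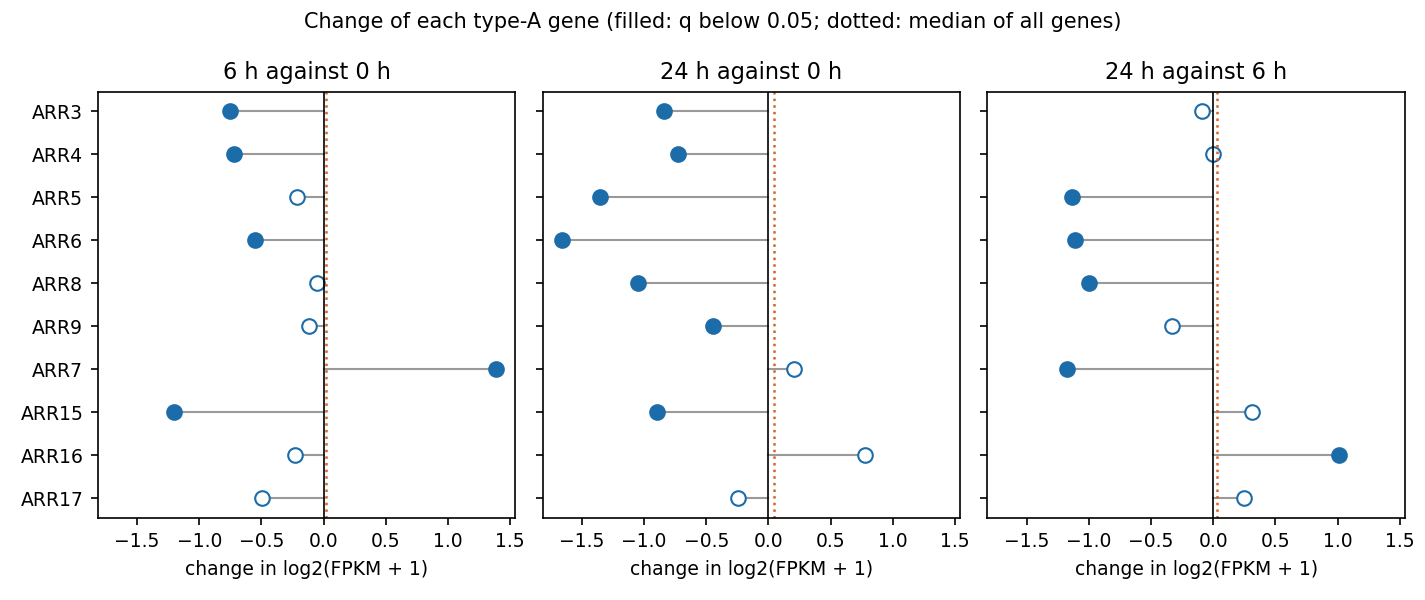
Change in log2(FPKM + 1) (horizontal axis, later minus earlier time) of each type-A gene in the 3 comparisons. Filled points have a q-value below 0.05 in the authors' deposited table, open points do not, and the dotted line is the median of all genes tested. At 24 h versus 0 h the 7 filled points all lie below 0, and ARR7 and ARR15 lie on opposite sides of 0 at 6 h.

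Markers of some cell types in the root also changed, mostly by 24 h. At 24 h versus 0 h, 3 of 3 root cap markers that passed the filter (SMB, BRN1 and BRN2) and 5 of 5 root hair cell markers were called lower, against 23.8% of all genes tested. The summed level of the 4 root cap markers was 94.7, 89.3 and 38.5 FPKM at 0, 6 and 24 h, and that of the root hair markers 857, 741 and 410 FPKM. The 4 markers of dividing cells were called higher at 24 h versus 0 h, against 23.8% of all genes tested, and their sum was 42.4, 53.0 and 81.8 FPKM. Of the 3 vascular initial markers in rows of their own, TMO5 and LOG4 were called higher at 24 h versus 0 h. The sum of the 3 genes was 5.91, 10.1 and 13.2 FPKM. LOG4 (0.474, 1.29 and 2.91 FPKM) reached the mean of 1 FPKM only through its 24 h value, the time at which it was called higher. Xylem markers summed to 22.8, 22.4 and 26.7 FPKM and phloem markers to 2.02, 1.59 and 2.72 FPKM. The 2 xylem markers and 1 phloem marker that passed the filter were not called in any comparison. For 6 h versus 0 h, 2 of the 5 root hair markers were called lower and none of the 3 root cap markers was called. In the same comparison 1 dividing cell marker (CDKB2;1) and 1 vascular initial marker (T5L1) were called higher. Of all genes tested, 7.35% were called lower and 3.98% higher at 6 h versus 0 h, and these small counts were not tested against those shares. The calls of CDKB2;1 and T5L1 were lost with adjustment within the comparison (0.112 and 0.106). At 24 h versus 0 h the median change was -1.27 for root cap and -1.09 for root hair markers. It was 0.94 both for dividing cell and for vascular initial markers. With the length trend described below removed, these medians were -1.51, -1.32, 0.75 and 0.75. No marker was listed at 0 at any time. The part of these shifts in the levels of the type-A genes was not tested, and in such bulk samples fewer cells of a type and less RNA per cell cannot be told apart.

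The genes were then examined with their closest relatives. In a global alignment of coding sequences, every type-A gene had its highest identity with 1 other member, which gave 5 pairs: ARR5 and ARR6 (78.8% identical bases), ARR16 and ARR17 (78.0%), ARR8 and ARR9 (77.5%), ARR7 and ARR15 (70.6%), and ARR3 and ARR4 (52.8%). No 100 bp stretch of a type-A transcript, the length of a read, was found in another type-A transcript. Positions below are those of the TAIR10.1 annotation.

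ARR3 and ARR4 made up the early falling pair. ARR3 (AT1G59940, chr1:22065617-22067233, minus strand) and ARR4 (AT1G10470, chr1:3441988-3444360, minus strand) are annotated with roles in the circadian period, and ARR4 is known to bind the photoreceptor phytochrome B. ARR3 had 49.2, 28.8 and 27.1 FPKM at 0, 6 and 24 h. ARR4 had 74.7, 44.8 and 44.8 FPKM at the same times. Both genes were highest at 0 h and nearly level between 6 and 24 h.

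At 6 h versus 0 h the level of ARR3 fell by 41.4% and that of ARR4 fell by 40.0%. The log2 fold changes in the authors' deposited table were -0.77 and -0.74, both at the lowest q, 0.000358. For 24 h versus 0 h they were -0.86 and -0.74 in the authors' deposited table, with q of 0.000358 and 0.00122. From 6 to 24 h neither gene was called, with log2 fold changes of -0.09 and -0.0014 and q-values of 0.790 and 0.996 in the authors' deposited table. The level of ARR3 relative to ARR4 was 0.658, 0.643 and 0.604 at 0, 6 and 24 h. The 2 genes of this pair thus stayed in nearly the same proportion while their sum stood at 124, 73.7 and 71.9 FPKM.

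ARR5 and ARR6 fell by the largest proportion among the 6 abundant genes, with the larger part of the log2 change after 6 h. ARR5 (AT3G48100, chr3:17758427-17760950, minus strand) is the source of a promoter commonly used to report cytokinin response in roots, and ARR6 (AT5G62920, chr5:25252007-25254318, minus strand) is its closest relative. ARR5 had 33.3, 28.5 and 12.4 FPKM at 0, 6 and 24 h. ARR6 had 40.2, 27.1 and 12.0 FPKM. Each gene was lowest at 24 h, and their levels nearly coincided at 6 and 24 h, where the ratio of ARR5 to ARR6 was 1.05 and 1.03, against 0.828 at 0 h.

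By 24 h the level of ARR5 fell by 62.7% and that of ARR6 fell by 70.1% relative to 0 h. In the authors' deposited table these are log2 fold changes of -1.42 and -1.74, both at q = 0.000358. Against 6 h, the log2 fold changes at 24 h were -1.20 and -1.17 in the authors' deposited table, again with q of 0.000358. At 6 h versus 0 h ARR6 fell by 32.6%, with q = 0.0193 in the authors' deposited table. ARR5 was not called at 6 h, with a log2 fold change of -0.22 and q = 0.416 in the authors' deposited table. Whether the changes of ARR5 and ARR6 differ at 6 h was not tested.

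ARR6 overlaps AT5G62910 on the other strand, and the 2 genes have 18.3% of the 100 bp windows of the ARR6 transcript in common. AT5G62910 had 6.42, 8.32 and 10.1 FPKM at 0, 6 and 24 h, in the opposite direction to ARR6. The libraries were strand-specific per the labels' protocols, while the strand setting used in counting is not given in the sources used here.

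The 300 bases upstream of the annotated start of ARR5 and ARR6 are shown because both genes were called lower at 24 h. Capitals mark AGATT and AGATC, on either strand, short forms of the core site to which type-B response regulators are known to bind. The windows are chr3:17760951-17761250 (minus strand) for ARR5 and chr5:25254319-25254618 (minus strand) for ARR6, from the RefSeq TAIR10.1 genome, written 5′ to 3′.
ARR5: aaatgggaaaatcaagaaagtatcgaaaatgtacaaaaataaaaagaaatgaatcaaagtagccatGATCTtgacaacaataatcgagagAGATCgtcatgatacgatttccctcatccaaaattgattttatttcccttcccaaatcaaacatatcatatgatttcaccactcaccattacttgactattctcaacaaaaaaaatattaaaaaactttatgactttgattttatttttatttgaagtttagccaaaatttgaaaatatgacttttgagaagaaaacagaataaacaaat
ARR6: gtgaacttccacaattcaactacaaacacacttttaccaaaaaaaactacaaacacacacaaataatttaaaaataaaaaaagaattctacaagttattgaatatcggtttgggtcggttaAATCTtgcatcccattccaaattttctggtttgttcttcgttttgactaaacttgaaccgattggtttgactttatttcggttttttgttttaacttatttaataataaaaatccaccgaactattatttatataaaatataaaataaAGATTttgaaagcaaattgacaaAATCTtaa
ARR5 held 2 matches to AGATC and none to AGATT, and ARR6 held 3 matches to AGATT and none to AGATC.

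ARR8 and ARR9 stayed near their starting level at 6 h. ARR8 (AT2G41310, chr2:17221840-17224880, plus strand), which the reference lists under the symbol RR3, was the most abundant type-A gene at 0 h. It had 81.6, 78.6 and 38.9 FPKM at 0, 6 and 24 h. ARR9 (AT3G57040, chr3:21109059-21111567, plus strand) had 48.7, 44.9 and 35.5 FPKM. Both genes were lowest at 24 h.

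At 6 h versus 0 h neither was called, with log2 fold changes of -0.05 for ARR8 and -0.12 for ARR9 and q-values of 0.862 and 0.689 in the authors' deposited table. By 24 h ARR8 fell by 52.3%, with q = 0.000358 in the authors' deposited table. ARR9 fell by 27.1%, with q = 0.0468 in the authors' deposited table. Relative to 6 h, ARR8 at 24 h had a log2 fold change of -1.01 with q = 0.000358, and ARR9 one of -0.34 with q = 0.166, in the authors' deposited table. The level of ARR8 relative to ARR9 was 1.68, 1.75 and 1.10 at 0, 6 and 24 h, and the difference between the changes of ARR8 and ARR9 was not tested. Of the 100 bp stretches of the ARR8 transcript, 8.81% lie in AT2G09250, a gene annotated on the other strand and not analysed here. ARR9 overlaps the other-strand gene AT3G08825, also not analysed here, but shares no 100 bp stretch of its transcript with it.

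ARR7 and ARR15 moved in opposite directions at 6 h. Both are weakly expressed here, and both are known as auxin-responsive type-A genes that act in the embryonic root stem cell lineage, and ARR7 as a target of WUSCHEL in the shoot apex. ARR7 (AT1G19050, chr1:6577833-6579314, minus strand) had 0.730, 3.53 and 0.998 FPKM at 0, 6 and 24 h. ARR15 (AT1G74890, chr1:28131447-28133025, minus strand) had 2.83, 0.661 and 1.06 FPKM. ARR7 was highest and ARR15 lowest at 6 h, while at 24 h their levels were close.

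At 6 h the level of ARR7 was 4.84 times that at 0 h, with a log2 fold change of 2.27 and q = 0.00483 in the authors' deposited table. ARR15 stood at 0.234 times its level at 0 h, with a log2 fold change of -2.10 and q = 0.0284 in the authors' deposited table. The ratio of ARR7 to ARR15 was 0.258, 5.34 and 0.945 at 0, 6 and 24 h, and their sum was 3.56, 4.19 and 2.05 FPKM. The difference between the changes of the 2 genes was not tested, and the call for ARR15 was lost when p-values were adjusted within the comparison (0.0872).

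At 24 h ARR7 fell by 71.7% relative to 6 h, with q = 0.00886 in the authors' deposited table. For 24 h versus 0 h its log2 fold change was 0.45 with q = 1 in the authors' deposited table. In the comparison of 6 h with 0 h, a q-value of 1 was also given to each of the 10248 rows listed at 0 at both times. The p-values recovered from the 53530 q-values below 1 alone had 5e-05 as their smallest. Rows given a q-value of 1 thus appear to lie outside the adjustment. ARR7 at 24 h versus 0 h was therefore probably not tested, rather than found unchanged. ARR15 at 24 h was 0.374 times its level at 0 h, with q = 0.0474 in the authors' deposited table. ARR7 and ARR15 are the only type-A genes with a pattern in which 6 h was the highest or the lowest time and the 6 h change was called. ARR7 reached the mean of 1 FPKM only through its 6 h value, and ARR15 only through its 0 h value. How many fragments lie behind values near 1 FPKM is unknown.

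The upstream windows of ARR7 and ARR15 are shown because this pair moved apart, with capitals marking AGATT and AGATC as above. They are chr1:6579315-6579614 (minus strand) for ARR7 and chr1:28133026-28133325 (minus strand) for ARR15.
ARR7: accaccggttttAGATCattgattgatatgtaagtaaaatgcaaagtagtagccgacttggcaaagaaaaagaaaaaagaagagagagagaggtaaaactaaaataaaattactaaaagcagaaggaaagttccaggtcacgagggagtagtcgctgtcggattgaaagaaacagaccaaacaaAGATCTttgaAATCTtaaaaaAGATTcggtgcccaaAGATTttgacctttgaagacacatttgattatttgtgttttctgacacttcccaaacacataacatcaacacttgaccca
ARR15: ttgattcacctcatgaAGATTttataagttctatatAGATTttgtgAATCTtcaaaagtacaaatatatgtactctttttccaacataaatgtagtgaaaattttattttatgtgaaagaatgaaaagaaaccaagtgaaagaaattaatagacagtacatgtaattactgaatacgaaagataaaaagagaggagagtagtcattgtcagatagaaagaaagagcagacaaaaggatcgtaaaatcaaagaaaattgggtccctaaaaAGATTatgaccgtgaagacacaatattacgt
ARR7 held 3 matches to AGATT and 3 to AGATC, of which 2 overlap as the palindrome AGATCT, and ARR15 held 4 matches to AGATT and none to AGATC.

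ARR16 and ARR17 were also low. ARR16 (AT2G40670, chr2:16969673-16972113, plus strand) had 1.19, 0.862 and 2.75 FPKM at 0, 6 and 24 h and was highest at 24 h. ARR17 (AT3G56380, chr3:20905264-20906397, plus strand) had 1.63, 0.869 and 1.22 FPKM and was not called in any comparison. As for ARR7 above, ARR17 at 24 h versus 6 h and ARR16 at 6 h versus 0 h appear to lie outside the authors' adjustment. ARR16 rose at 24 h to 3.19 times its level at 6 h, with a log2 fold change of 1.67 and q = 0.0351 in the authors' deposited table. Against 0 h, its log2 fold change at 24 h was 1.21 with q = 0.123 in the authors' deposited table. ARR16 was the 1 type-A gene called higher at 24 h in either comparison with that time.

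Across the family, the motif content of the upstream windows was compared with all genes. AGATT or AGATC, on either strand, occurred in the 300 bases upstream of 10 of 10 type-A genes and in 79.9% of 27438 protein-coding genes, so most promoters hold such a match. Taken alone, AGATT was in 7 type-A windows (70.7% of all genes) and AGATC in 5 (31.6%). The longer form AGATACG was in none of the 10 windows and in 2.08% of all windows. TGACG, the core of sites bound by TGA-type bZIP factors, the family of PAN, was in 3 windows (ARR4, ARR5 and ARR9) and in 21.3% of all. AAGAAT, a motif linked to PAN in the regulation of the flower gene AGAMOUS, was in 4 windows (ARR6, ARR8, ARR15 and ARR16) and in 33.2% of all. Each motif was read on both strands. These are letter matches in a short window, not binding sites.

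Transcript length moved with the changes at 24 h, and the type-A genes were set against that trend. Across 17501 genes, which are not independent replicates, the change and the length had a Spearman's rho of -0.39 at 24 h versus 0 h, -0.47 at 24 h versus 6 h and -0.016 at 6 h versus 0 h. The longest type-A transcripts ranged from 618 bp (ARR17) to 2370 bp (ARR8). At their lengths the running median of all genes at 24 h versus 0 h ranged from 0.64 for ARR17 to -0.18 for ARR8. Among the 7 genes called lower, this running median was above 0 for ARR3, ARR5, ARR6, ARR9 and ARR15 and below 0 for ARR4 and ARR8. With the trend removed, the changes were -1.58 for ARR5, -1.89 for ARR6, -0.87 for ARR8, -1.07 for ARR3, -0.68 for ARR4, -0.58 for ARR9 and -1.29 for ARR15. The median change of the 10 genes was -0.88 after this step, against -0.78 before it.

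**Figure D3:**
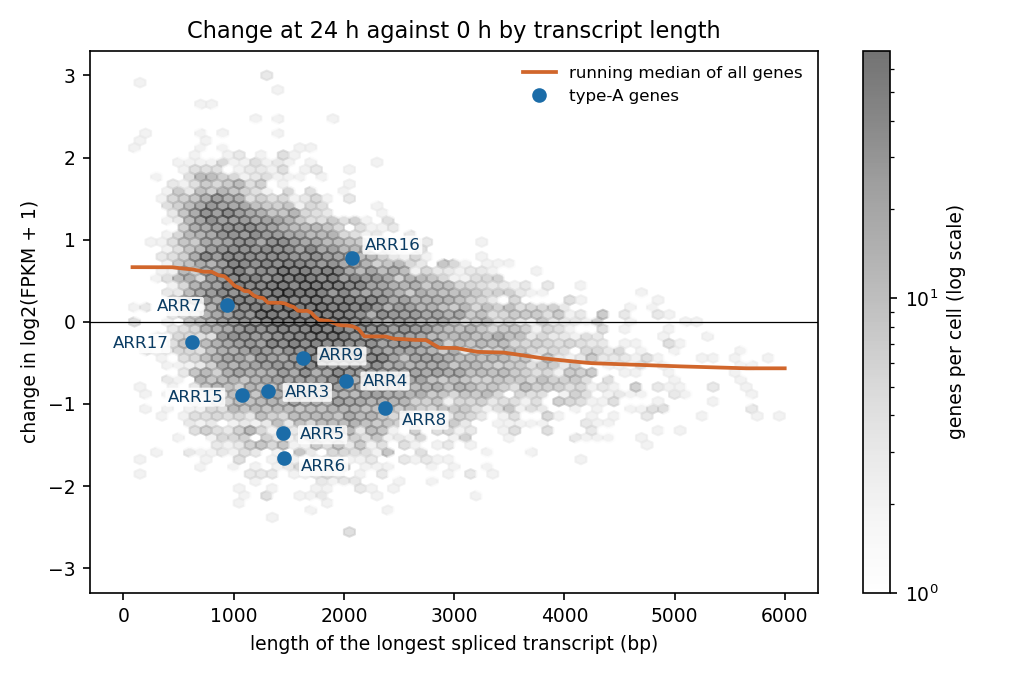
Change in log2(FPKM + 1) at 24 h versus 0 h (vertical axis) by length of the longest spliced transcript (horizontal axis, bp). Grey cells count genes on a log scale, the line is the running median of all genes, labelled points are the type-A genes, and 198 of 17501 genes lie outside the plotted range. ARR16 lies above the line and the other 9 type-A genes lie below it.

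The other parts of the cytokinin pathway were described from 7 lists with 40 genes in all, of which 23 had a mean of at least 1 FPKM. Of these 23, 4 were called at 6 h versus 0 h (1 higher, 3 lower), 15 at 24 h versus 0 h (5 higher, 10 lower) and 13 at 24 h versus 6 h (5 higher, 8 lower). Of all genes tested, 11.3%, 47.7% and 39.4% were called in these comparisons, and at 24 h versus 0 h the shares were 23.8% higher and 23.8% lower, so the 5 of 23 called higher stood near the background. With adjustment within the comparison, the calls of AHK2 and AHP1 at 6 h were lost, which left AHK4 and EXPA1. The lower calls at 24 h versus 0 h were 3 receptors, 2 phosphotransfer proteins, 4 type-B regulators and SHY2, and the higher ones were AHP5, 2 cytokinin response factors and 2 KMD genes.

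All 3 receptors were called lower at 24 h versus 0 h, against 23.8% of all genes tested, with a median change of -1.13. AHK4, the receptor with a main role in roots, had 69.4, 34.3 and 15.4 FPKM at 0, 6 and 24 h, and its changes of -0.996 at 6 h and -2.11 at 24 h versus 0 h had q of 0.000358 in the authors' deposited table. AHK2 had 11.2, 8.07 and 4.60 FPKM and was called lower at 6 h (q-value 0.0379 in the authors' deposited table, 0.113 when adjusted within the comparison) and at 24 h (0.000358). AHK3 had 19.0, 20.5 and 9.66 FPKM and was called lower at 24 h with q = 0.000358 in the authors' deposited table. These are long transcripts, and with the length trend removed the median of the 3 receptors at 24 h was -0.61.

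Of the type-B response regulators, 4 of 11 passed the filter on low values, ARR1, ARR2, ARR10 and ARR12. None of the 4 was called at 6 h versus 0 h. All 4 were called lower at 24 h versus 0 h, against 23.8% of all genes tested. Their median change at 24 h was -1.02 (-0.82 with the length trend removed). ARR10 had 62.1, 53.7 and 25.8 FPKM, ARR2 had 22.8, 18.7 and 9.45 FPKM and ARR12 had 47.3, 36.5 and 25.8 FPKM at 0, 6 and 24 h. The q-values for ARR10, ARR2 and ARR12 at 24 h versus 0 h were 0.000358 in the authors' deposited table. The type-C genes ARR22 and ARR24 were listed at 0 at each time.

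Of the phosphotransfer proteins, 4 of 6 passed the filter, with a median change of -0.36 at 24 h versus 0 h (-0.59 with the length trend removed). In that comparison 2 of these 4 were called lower and 1 higher, against 23.8% of all genes tested in each direction. AHP2 and AHP3 were called lower at 24 h versus 0 h, with 67.9 and 77.1 FPKM at 24 h versus 98.8 and 112 FPKM at 0 h, and q-values of 0.0162 and 0.0118 in the authors' deposited table. AHP1 was called lower at 6 h, with 158 FPKM at 6 h versus 226 FPKM at 0 h and q = 0.0178 in the authors' deposited table (0.0576 when adjusted within the comparison). AHP5 was called higher at 24 h versus 0 h, with 14.6 FPKM at 24 h versus 8.59 FPKM at 0 h and q = 0.00903 in the authors' deposited table.

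The cytokinin response factors, AP2-type transcription factors of which some are induced by cytokinin, gave 2 calls among the 4 that passed the filter, both higher at 24 h versus 0 h. CRF2 had 8.66 FPKM at 24 h versus 4.41 FPKM at 0 h, and CRF4 had 13.4 FPKM against 7.42 FPKM, with q of 0.000951 and 0.00246 in the authors' deposited table. The KMD genes encode F-box proteins that target type-B response regulators for degradation. All 4 passed the filter and 2 were called higher at 24 h versus 0 h. In this comparison 23.8% of all genes tested were called higher. The 2 of 4 in either list was not tested against that share. KMD1 had 5.76 FPKM at 24 h versus 0.891 FPKM at 0 h, with q = 0.000358 in the authors' deposited table. KMD2 had 34.3 FPKM at 24 h versus 21.5 FPKM at 0 h, with q = 0.00246 in the authors' deposited table. The median change at 24 h versus 0 h was 0.47 for the response factors and 1.01 for the KMD genes. With the length trend removed, these medians were 0.28 and 0.88.

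Of 8 further genes known to respond to cytokinin, 4 passed the filter. The expansin gene EXPA1, which acts in cell wall loosening, had 28.2, 88.9 and 32.4 FPKM at 0, 6 and 24 h. It was called higher at 6 h versus 0 h and lower at 24 h versus 6 h, both with q of 0.000358 in the authors' deposited table. SHY2, an Aux/IAA repressor that type-B factors activate in the root meristem, had 1.55 FPKM at 24 h versus 3.96 FPKM at 0 h, with q = 0.00379 in the authors' deposited table. CKX5 and CYP735A2 were not called in any comparison.

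**Figure D4:**
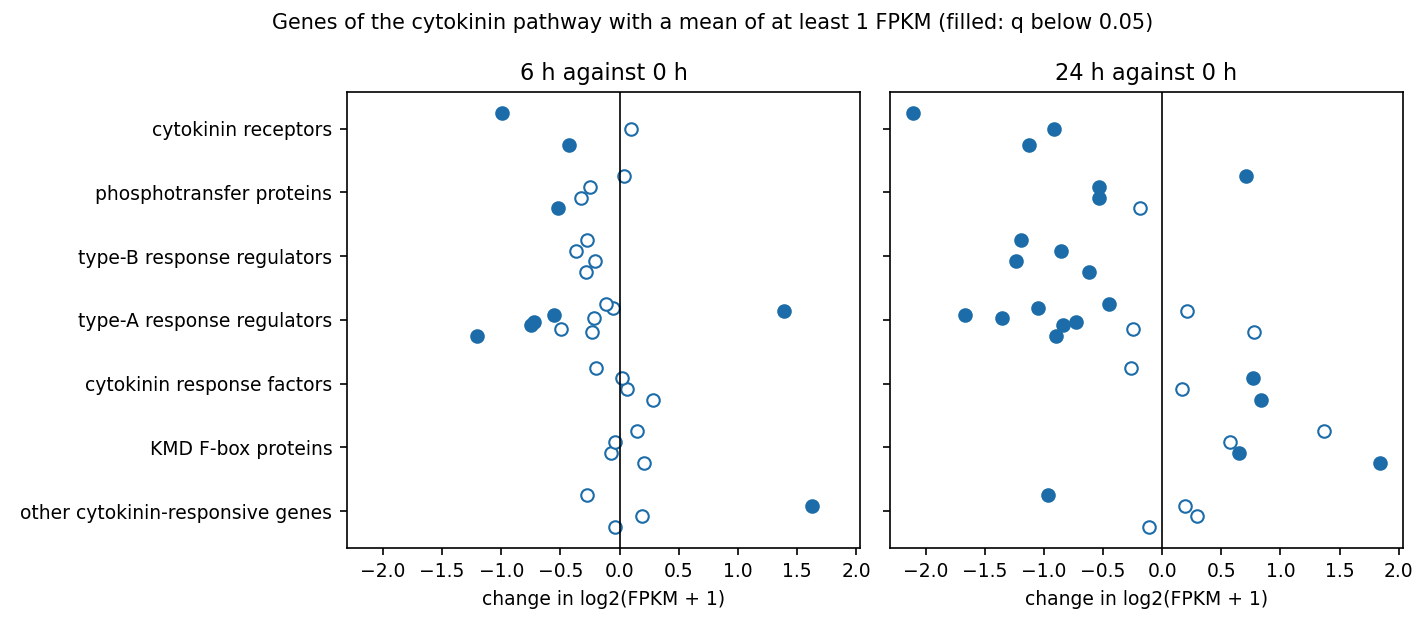
Change in log2(FPKM + 1) (horizontal axis) at 6 h and 24 h versus 0 h for the genes of each cytokinin pathway list with a mean of at least 1 FPKM, type-A genes included. Each point is 1 gene, and filled points have a q-value below 0.05 in the authors' deposited table. At 24 h all 3 receptors and all 4 type-B regulators lie below 0, and all 4 KMD genes lie above it, 2 of them called.

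On the log2(FPKM + 1) scale ARR6 had the largest change of any called type-A gene, -1.66 at 24 h versus 0 h. This rank depends on the pseudocount: with 0.1 in place of 1, ARR7 (2.13) and ARR15 (-1.94) at 6 h versus 0 h lay beyond ARR6 (-1.73). The genes with the pair of changes most like that of ARR6 (6 h and 24 h versus 0 h) among those with a mean of at least 1 FPKM were AT4G38860, COBL9 and AT4G33666, at Euclidean distances of 0.026, 0.035 and 0.039 on the log2 scale. AT4G38860, a small auxin upregulated RNA gene listed as SAUR16, had 7.02, 4.43 and 1.57 FPKM at 0, 6 and 24 h. COBL9 (AT5G49270), needed for root hair growth and one of the root hair markers above, had 132, 90.0 and 42.1 FPKM. AT4G33666 had 113, 77.9 and 34.2 FPKM. The likeness rests on 3 combined values per gene.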

How the data were processed

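Polyadenylated RNA of 9 root samples, 3 per induction time, was sequenced from strand-specific libraries with single-end 100 bp reads, per the labels' protocols. The submitters' processing notes list TopHat2 2.0.13, Cufflinks 2.1.1, Cuffdiff and the build TAIR10; the annotation is not given in the sources used here. The authors deposited 1 value per row and time, taken as FPKM from the values and from the tools listed, since the header names no unit. They also deposited a log2 fold change (later over earlier time, no pseudocount) and a q-value for each pair of times, per the file headers. Columns were assigned to times through the sample descriptions.

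From these values, changes were computed as differences of log2(FPKM + 1), and genes were called by the authors' q-value below 0.05 and a mean of at least 1 FPKM. The pseudocount understates changes of low genes. The fits across replicates planned with limma could not be made on combined values. P-values were recovered from the q-values as a Benjamini-Hochberg adjustment pooled over 53530 tests; 99.8% came out as whole multiples of 5e-05 within 0.1 of a multiple. This step and the length trend (running median over 50 length bins) were tested on simulated data. Median-of-ratios factors were 0.985, 0.990 and 1.018 at 0, 6 and 24 h.

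The members and lists were chosen with earlier results of these data known. Named were all 10 members, PAN, list genes called in any comparison (at most 3 per list and comparison, largest change first) and the 3 genes nearest to the called member with the largest change; genes singled out beyond this were chosen after their values were seen. All 74 listed loci carried their names in the RefSeq TAIR10.1 table, and 17501 of 17841 genes had a transcript length there. The marker LHW had no row of its own. Sequences and positions came from RefSeq TAIR10.1, whose gene models may differ from those the authors used. Protein sequences were not used here. Python 3.11.15, pandas 2.3.3, scipy 1.17.1 and Biopython 1.88 were used.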

Additional observations from a re-analysis of the deposited data

How the results depend on the processing

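No paired analysis was possible because each time has only 1 value per gene, with its replicates combined. Fits without single replicates could not be run either. Under 9 of 15 alternatives the count of type-A genes called was within 1.5 times the reported one. These include calls without the filter on low values, which could not change a count because all 10 genes pass that filter. At 6 h versus 0 h the count of 5 became 3 with a minimum mean of 5 FPKM, 3 with a q-value limit of 0.01, 3 with adjustment within the comparison and 2 with a minimum change of 1 in log2(FPKM + 1). At 24 h versus 0 h the count of 7 became 3 with that minimum change. At 24 h versus 6 h the count of 5 became 3 with a minimum mean of 5 FPKM, which leaves only 6 of the 10 genes to test.

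The change of a member kept its direction in 145 of 150 cases across both other pseudocounts, both scalings and removal of the length trend. Many of these cases were fixed in advance. Both other pseudocounts compare the same values and could not reverse a direction. Median-of-ratios scaling, whose factors differed little between times, could reverse only very small changes. None of the 5 reversals touched a called change. Quantile normalization turned ARR8 at 6 h versus 0 h to 0.013. Removal of the length trend turned ARR7 at 24 h versus 0 h to -0.31, and at 24 h versus 6 h it turned ARR4 to 0.066, ARR15 to -0.097 and ARR17 to -0.35. The cause was not tested further. Of the 32 calls among the pathway genes, 0 changed direction under these 5 settings, and here too the pseudocounts could not have changed it. Depth is unknown, so the precision of values near 1 FPKM (ARR7, ARR15, ARR16 and ARR17) cannot be stated.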

Other observations

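Several genes near the pathway lay below the filter of 1 FPKM or close to it and had their highest value at 24 h. AHP6, a pseudo-phosphotransfer protein that inhibits cytokinin signalling beside the protoxylem, had 0.461, 0.712 and 1.64 FPKM at 0, 6 and 24 h, with q = 0.351 at 24 h versus 0 h in the authors' deposited table. CRF1 had 0.0458, 0.185 and 0.873 FPKM, and CRF5 had 0.235, 0.281 and 0.829 FPKM, with q of 1 in the authors' deposited table. LOG4, an enzyme that releases active cytokinin, had 0.474, 1.29 and 2.91 FPKM, with q = 0.0350 at 24 h versus 0 h in the authors' deposited table. The phloem regulator APL had 0.345, 0.204 and 1.16 FPKM, with q = 0.0192 for that comparison in the authors' deposited table. These genes were singled out after their values were seen.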
